A study of Arabidopsis thaliana with 21 samples.

Results

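The comparison set rosettes of Arabidopsis thaliana after 8 h of high light (T8H, 3 libraries) against rosettes taken in the dark just before dawn (T0D, 3 libraries), that is 6 of the 21 RNA sequencing libraries of a series on transitions from dark to light. All plants were of the accession Col-0, had grown for 21 days on soil, with a 16 h day at 22 °C, and spent the night before harvest in closed chambers supplied with a stream of air. High light was 500 µE from an LED source. A group kept for the same 8 h at a standard 100 µE (T8L, 3 libraries) served where the effect of the hour had to be set apart from that of the intensity, because T8H and T0D differ in both and the 2 cannot be told apart from those groups alone. Tissue was the whole rosette, harvested in biological triplicate per the series' design text, and the sources used here do not say how many plants made up 1 sample. No gene was selected in advance: all 33341 annotated loci of the count files entered, and 19626 held enough reads to be tested.

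The leaf changes from a consumer of stored starch at night to a producer of sugar by day, and its transcripts follow light, sugar and an internal clock. In that clock the MYB-like factors CCA1 and LHY peak around dawn and repress genes of the afternoon and evening, among them TOC1, GI and ELF4, through a promoter motif named the evening element. When carbon runs short at the end of the night, genes for the use of amino acids and cell wall sugars as fuel are active. Light beyond what photosynthesis can use is known to lower the transcripts of the chlorophyll-binding antenna proteins and to raise those of anthocyanin synthesis, chaperones and antioxidant enzymes.

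The promoters of 5 genes on which the results below turn are shown first, because they differ in the motifs they hold. Each sequence covers the 250 bases before the start of the gene in the RefSeq annotation of the build TAIR10.1, written 5′ to 3′ on the strand of the gene. FKF1 (plus strand, chr1:25508389-25508638) is a gene of the evening that rose from almost no reads. SEN1 (plus strand, chr4:16944628-16944877) and ASN1 (minus strand, chr3:17441432-17441681) are genes of the dark leaf that fell the furthest or nearly so. UF3GT (minus strand, chr5:21938397-21938646) and DFR (minus strand, chr5:17166033-17166282) belong to anthocyanin synthesis. They were the highest above standard light among the genes admitted by the naming rule given at the end. Capitals mark, on either strand, the evening element (AAATATCT), the G-box (CACGTG), the I-box (GATAAG), the motif TTATCC, which can overlap an I-box by 5 bases, and the site II element (GGCCCA).
FKF1: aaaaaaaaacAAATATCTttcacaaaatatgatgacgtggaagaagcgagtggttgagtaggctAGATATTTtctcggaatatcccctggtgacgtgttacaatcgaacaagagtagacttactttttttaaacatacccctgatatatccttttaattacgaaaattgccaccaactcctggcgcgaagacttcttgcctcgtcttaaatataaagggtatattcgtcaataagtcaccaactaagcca
SEN1: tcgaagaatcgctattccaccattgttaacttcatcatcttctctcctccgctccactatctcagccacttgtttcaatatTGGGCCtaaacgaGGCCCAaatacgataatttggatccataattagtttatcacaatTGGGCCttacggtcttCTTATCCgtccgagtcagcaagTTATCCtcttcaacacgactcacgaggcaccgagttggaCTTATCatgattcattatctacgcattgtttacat
ASN1: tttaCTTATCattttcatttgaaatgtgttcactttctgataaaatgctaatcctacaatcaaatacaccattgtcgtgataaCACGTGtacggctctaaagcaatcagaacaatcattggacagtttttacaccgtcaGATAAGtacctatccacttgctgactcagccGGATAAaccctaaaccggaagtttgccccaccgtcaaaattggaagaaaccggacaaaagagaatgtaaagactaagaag
UF3GT: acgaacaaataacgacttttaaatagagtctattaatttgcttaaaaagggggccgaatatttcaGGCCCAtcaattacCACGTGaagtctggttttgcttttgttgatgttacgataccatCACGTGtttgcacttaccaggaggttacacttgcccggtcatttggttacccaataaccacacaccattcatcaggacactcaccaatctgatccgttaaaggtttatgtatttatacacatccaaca
DFR: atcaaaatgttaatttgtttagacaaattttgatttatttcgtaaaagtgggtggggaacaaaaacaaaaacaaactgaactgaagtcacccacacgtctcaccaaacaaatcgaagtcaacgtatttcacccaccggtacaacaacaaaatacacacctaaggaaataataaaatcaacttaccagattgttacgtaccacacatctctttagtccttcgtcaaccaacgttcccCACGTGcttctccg
FKF1 held the evening element at 2 places. SEN1 held 3 site II elements and 2 copies each of the I-box and of TTATCC, 1 pair of which overlapped. ASN1 held 1 G-box, 2 I-boxes and 1 TTATCC, UF3GT 2 G-boxes and a site II element, and DFR 1 G-box.

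Total counts were 31449700, 9568858 and 9257546 in T8H and ran from 13592728 to 15536916 in T0D. Replicates differed by more than sampling noise in both groups. Ribosomal RNA took 19.0% to 26.0% of the counts in T8H and 0.133% to 6.96% in T0D. With 3 libraries against 3, an exact two-sided permutation test cannot fall below p = 0.1, the value found for this share. Chloroplast loci took 45.2% to 48.0% of the remaining counts in T8H and 35.4% to 44.4% in T0D, and T0D replicate 2 stood apart by its mitochondrial share of 3.62%, against 0.780% and 0.991% in the other two dark libraries. Markers matched the labelled tissue: mesophyll markers summed to 21234 to 30193 CPM (counts scaled to library size) in T0D and 7503 to 8423 in T8H, and the 2 tested of 6 root markers to 9.32 to 24.6 and 7.32 to 27.7. Of 6 flower and seed markers 1 was tested, AG, at no more than 0.757 CPM in T8H, and the other 5 had at most 6 reads in any T0D or T8H library. Of the mesophyll markers 3 of 4 fell, all of which also stand on the photosynthesis lists below; of the epidermal and trichome markers 4 of 5 fell, of the vascular markers 4 of 7 and of the guard cell markers 2 of 5, while 2 guard cell markers and 1 of 5 markers of dividing cells rose. Over all loci tested, 23.4% rose and 23.9% fell by the test given below. In whole rosettes, fewer cells of a type and less RNA per cell cannot be told apart, and the part of these marker shifts in the results below was not tested.

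After 8 h of high light, 4593 loci had risen and 4682 had fallen against the dark, which is 23.4% and 23.9% of those tested, and the median over all loci was 0.00 on the log2 scale. Counts of list members below are to be read beside these shares. Lists and members were chosen with earlier results of these data known, so their counts describe the lists and are no independent check. The words rose and fell stand for a Benjamini-Hochberg adjusted p under 0.05 in the quasi-likelihood test of edgeR, and a value in brackets after levels is the log2 fold change ± its standard error. The change was at least 2-fold for 3406 risen (17.4%) and 3229 fallen loci (16.5%), at least 16-fold for 310 and 312, and at least 128-fold for 45 and 50. Among the risen loci 105 had no read in any dark library, and among the fallen loci 35 had none in any T8H library. The authors' deposited table lists 5845 genes for the same contrast, 2965 risen and 2880 fallen. All 5845 were also called here with the same sign and made up 63.0% of the 9275 loci called, which were 47.3% of those tested. The smallest absolute log2 fold change in the authors' deposited table was 0.82. That table is named for glmTreat, the edgeR test against a minimum fold, whereas the calls here were tested against no change. On the same counts the stricter set lies largely within the looser one, so the overlap is no independent check.

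**Figure D1:**
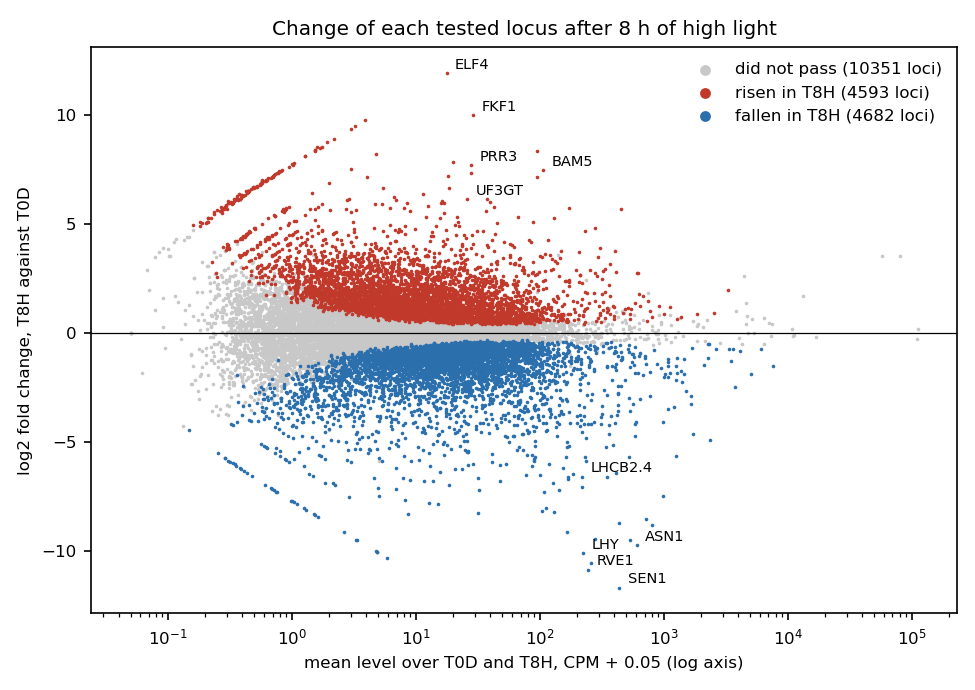
Each point is 1 of the 19626 tested loci; the horizontal axis is the mean of the T0D and T8H levels in CPM + 0.05 on a log axis and the vertical axis the log2 fold change of T8H against T0D, with risen loci in red, fallen loci in blue and the rest in grey. The 4593 risen and 4682 fallen loci lie about evenly on both sides of 0, ELF4 and SEN1 are at the extremes, and the straight diagonal rows are loci with no or few reads in 1 of the groups.

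Loci were also counted by kind of transcript. Small nucleolar RNAs (snoRNAs) guide the modification of ribosomal RNA. Of 120 tested, 63 rose (52.5%) and 2 fell, with a median log2 fold change of 2.58. With the ribosomal RNA share of each library in the model as a covariate, 34 rose, 2 fell and the median was 1.54. The summed level of all tested snoRNAs was 641 to 794 CPM in T0D and 1536 to 1556 CPM in T8H. This sum also holds abundant loci that did not pass. AT3G21805 went from a mean of 74.6 to 399 CPM (adjusted p = 0.118) and AT3G04165 from 40.5 to 149 CPM (adjusted p = 0.0921). The risen snoRNAs were scarce, with a median level of 2.89 CPM in T8H. The locus AT5G08515, for example, had 0.138, 0.491 and 0.959 CPM in the dark libraries and 30.9, 34.6 and 34.8 CPM in T8H, a log2 change of 5.97 ± 1.25 (adjusted p = 0.00111); it was chosen after its values were seen. Within a single group, 5 h of high light, the summed snoRNA level was 317, 473 and 1877 CPM in libraries with 0.0720%, 0.0423% and 32.9% of ribosomal RNA, and AT5G08515 was at 0.785, 1.31 and 33.3 CPM. In T8L replicate 3, with 3.58% of ribosomal RNA, the sum was 1620 CPM, as high as in T8H. The part of the ribosomal RNA share in the snoRNA rise was not tested further. Of 381 long noncoding RNAs, 34 rose (8.92%) and 91 fell (23.9%), so the fallen share equalled that of all loci and the risen share was below it (median -0.68). Of the 33 chloroplast transfer RNAs, 1 rose and 11 fell (median -0.53). Against standard light, 2 snoRNAs were higher and 1 was lower in T8H.

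Rises and falls were ranked among nuclear protein-coding genes with a symbol, at least 5 CPM in the higher group and no overlap of libraries. The 10 largest rises in this set were those of clock genes, a starch-degrading enzyme, genes of defence chemistry and of the cell wall, and a heat shock factor. ELF4, a member of the evening complex of the clock (AT2G40080), had no read in the 3 dark libraries and 36.6, 39.1 and 30.4 CPM in T8H. The ranking required that no T8H library overlap the dark ones. The T8H mean was at least 159.8-fold higher than a floor of 3 counts in 1 dark library. FKF1, a blue-light receptor that opens the flowering response to long days (AT1G68050, chr1:25508639-25510907), had 0.138, 0 and 0 CPM in T0D and 67.7, 51.6 and 54.1 CPM in T8H. With 2 reads in the dark group, the ratio was 1317 (95% interval 364 to 10880.2), an interval that covers counting error only. PRR3, a further clock component, rose from 0.138, 0 and 0.664 CPM to 54, 51.1 and 61.8 CPM, a log2 change of 7.69 ± 0.48 (adjusted p = 6.23e-12). The beta-amylase BAM5 had 2.28, 0.35 and 0.885 CPM in T0D and 324, 181 and 128 CPM in T8H, with T8H replicate 1 the highest. Its log2 change was 7.48 ± 0.86 (adjusted p = 2.91e-06). IGMT5, annotated as an O-methyltransferase, rose by 7.83 ± 0.87 and the xyloglucan-modifying enzyme XTH31 by 7.19 ± 0.65 on the log2 scale. The terpene synthase gene TPS03 had no read in the dark and 6.97, 8.14 and 4.16 CPM in T8H, at least 29-fold higher. The heat shock factor gene HSFA2 had 3 reads in the dark group, and its ratio was 87.6 (95% interval 29.7 to 427). TBL26, with 2 dark reads, had a ratio of 171 (95% interval 47.1 to 1419.6), and DIP2, annotated as an E3 ubiquitin ligase, rose by 6.24 ± 1.07. Whether reads of IGMT5 are shared with related genes of its family was not tested.

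The 10 largest falls in the same ranked set held 4 genes of the dark and starved leaf and 4 MYB-like clock factors. The clock-linked COL2 and the phosphodiesterase gene GDPD2 were the others. SEN1, a marker of darkness and senescence (AT4G35770, chr4:16944878-16946266), had 931, 962 and 741 CPM in the dark and 0.176, 0.121 and 0.631 CPM in T8H, a log2 change of -11.70 ± 0.68 (adjusted p = 4.34e-11). The asparagine synthetase gene ASN1 (AT3G47340, chr3:17437840-17441431) went from 1092, 1444 and 1103 CPM to 1.27, 1.94 and 1.14 CPM (-9.74 ± 0.61). In both genes the dark libraries lay far above those of T8H, and the ranking itself required the absence of overlap. ERD5, which encodes the proline dehydrogenase that burns proline, fell from 908, 1219 and 1086 CPM to 1.58, 0.85 and 1.77 CPM (-9.53 ± 0.48), and BXL1, a beta-xylosidase of the cell wall, from 1409, 1518 and 1378 CPM to 2.85, 2.06 and 7.19 CPM (-8.53 ± 0.41). T8H replicate 3 was the highest of its group for BXL1 and still far below the dark libraries. COL2 fell (-9.15 ± 0.36) to 0.617 CPM and GDPD2 (-8.24 ± 0.35) to 0.956 CPM, in T8H as mean levels.

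**Figure D2:**
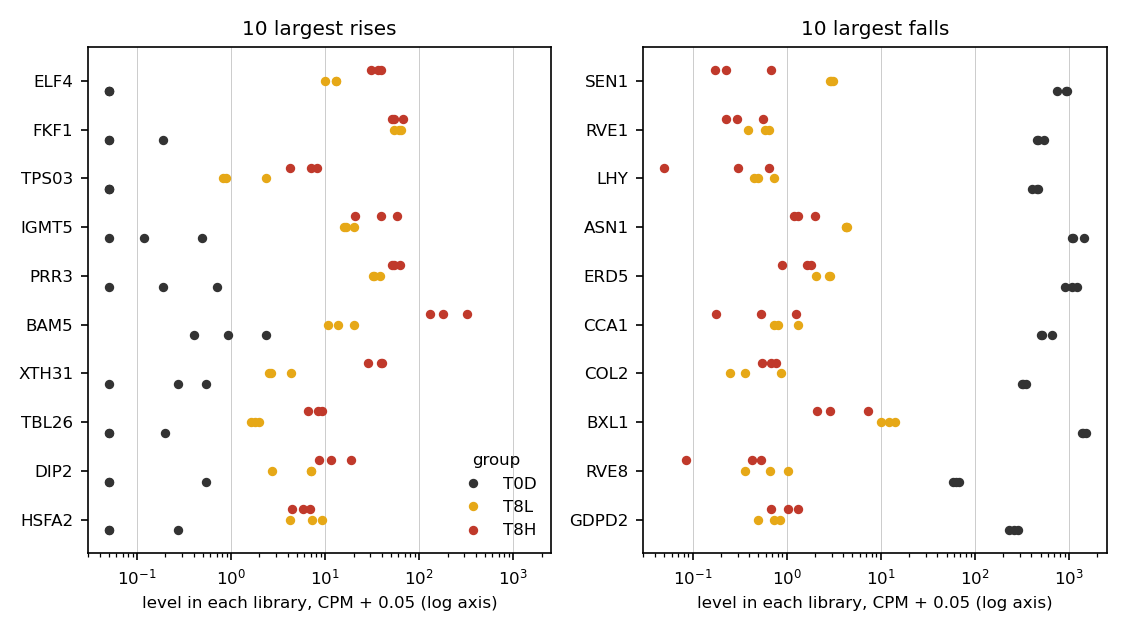
Levels in each library of the 10 genes with the largest rises (left) and falls (right) among the genes ranked, in CPM + 0.05 on a log axis. Dark is in black, 8 h of standard light in yellow and 8 h of high light in red. Each point is 1 library and points at the left edge are libraries with no read. Dark and high-light libraries do not overlap for any of the 20 genes, which the rule for choosing them required. BAM5, XTH31, TBL26, SEN1 and BXL1 are also without overlap between the light intensities, with a difference that passed. The difference of ELF4 between the intensities passed as well.

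Clock genes of the dawn were low and most of those of the evening high. Of 14 genes on the morning list, 12 fell, 9 of them at least 2-fold, and none rose (median -5.58). RVE2 and AT5G52660 were the 2 that did not pass. CCA1 went from 653, 504 and 522 CPM to 1.2, 0.486 and 0.126 CPM and LHY, its partner, from 463, 408 and 468 CPM to 0.598, 0 and 0.252 CPM. Their log2 changes were -9.47 ± 0.37 (adjusted p = 1.25e-15) and -10.10 ± 0.37 (adjusted p = 6.65e-16). RVE1, a MYB-like factor that links the clock to auxin, fell (-10.87 ± 0.45) and RVE8, an activator of evening genes (-8.29 ± 0.46). Among 15 genes of the day and evening, 9 rose and 5 fell (median 2.63). GI, a large protein that stabilises clock photoreceptors, had 1.59, 0.981 and 1.03 CPM in T0D and 87.9, 74.7 and 70.5 CPM in T8H (6.00 ± 0.26, adjusted p = 3.95e-15). TOC1, a repressor of CCA1 and LHY, rose from 8.29, 16 and 10.5 CPM to 137, 115 and 128 CPM (3.45 ± 0.24) and PRR5, of the same family, from 1.45, 2.73 and 1.77 CPM to 23.8, 23.8 and 20.7 CPM (3.52 ± 0.31). The 5 that fell were CDF1, CDF2 and CDF3, which repress flowering, and the F-box genes ZTL and LKP2. They are named because they are few and were chosen after their values were seen, as are the other small groups named in full below. CDF2 had the largest change of these, from 176 ± 21.9 to 3.27 ± 0.566 CPM (mean ± SD, n = 3), as for the other means given with ±.

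PRR7 and PRR9 belong to the same family as TOC1 but act earlier in the day. PRR7 had 84.5, 109.5 and 79.6 CPM in the dark and 57.3, 52.2 and 56.9 CPM in T8H, a log2 change of -0.72 ± 0.20. For PRR9 the libraries overlapped, with 5.46, 6.94 and 3.39 CPM and 2.96, 1.94 and 3.78 CPM, and its change of -0.86 ± 0.34 (adjusted p = 0.0425) no longer passed in 8 of the alternative analyses. The mean levels of PRR9 after 2 and 5 h of high light were 61 and 37.8 CPM, and those of PRR7 45.3 and 118 CPM.

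Genes of carbon starvation fell almost without exception. Of 20 genes on the list, 18 fell and 1 rose (median -5.58), and the summed level went from 9487 to 11129 CPM in T0D to 130.3 to 163 CPM in T8H. Besides SEN1, ASN1, ERD5 and BXL1, the gene AT3G15450, annotated as an aluminium-induced protein, fell from 1586, 1626 and 1573 CPM to 3.52, 2.43 and 4.42 CPM (-8.85 ± 0.42), and DIN10, which encodes a protein of the raffinose synthase family, from 1640.2, 2395 and 1848 CPM to 5.7, 12.9 and 14.9 CPM (-7.49 ± 0.52). Each T8H library was below each dark library for both. The gene that rose was BGLU30, a beta-glucosidase also known as induced in darkness, from 0.395 ± 0.359 to 4.82 ± 1.76 CPM, and DIN9 did not pass. The breakdown of branched-chain amino acids, which feeds electrons to mitochondria when sugar is short, showed 12 of 17 genes fallen and 1 risen, D2HGDH (median -2.21). The aminotransferase gene BCAT2 fell from 79.8, 99.5 and 64.5 CPM to 1.76, 0.243 and 1.51 CPM and the carboxylase subunit gene MCCA from 302, 359.8 and 290.0 CPM to 7.25, 4.61 and 5.8 CPM. Their log2 changes were -5.95 ± 0.41 and -5.72 ± 0.30, and those of the dehydrogenase subunit genes DIN4 and BCE2 were -4.14 ± 0.29 and -3.69 ± 0.24.

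Most starch genes rose, of synthesis as of breakdown. For starch synthesis 12 of 17 genes rose and 2 fell (median 1.08). SS4, the starch synthase that starts new granules, rose from 34, 24.2 and 15.9 CPM to 171, 151 and 151 CPM (2.67 ± 0.25, adjusted p = 3.03e-09), DBE1, a debranching enzyme, by 2.54 ± 0.23, and APL3, a subunit of the enzyme that makes ADP-glucose, by 1.61 ± 0.24. GPT2, which imports glucose phosphate into plastids, rose by 2.41 ± 0.56 to a mean of 3.66 CPM, after 71.3 CPM at 5 h. GBSS1, the synthase that makes amylose, fell from 139, 122 and 125 CPM to 3.03, 2.55 and 3.66 CPM (-5.38 ± 0.27, adjusted p = 8.81e-14), and SS2 was the other gene that fell. For starch breakdown 16 of 22 genes rose and 5 fell (median 2.76). Beside BAM5, the cytosolic phosphorylase gene PHS2 went from 19.1, 21.9 and 17.5 CPM to 619, 503 and 507 CPM (4.80 ± 0.23, adjusted p = 3.16e-14) and BAM6 from 1.66, 0.631 and 1.48 CPM to 37.3, 30.4 and 33.1 CPM (4.74 ± 0.31). All high-light libraries lay above all dark ones for these. BAM9, annotated as a beta-amylase, went the other way, from 402, 277 and 330.2 CPM to 2.85, 2.67 and 5.17 CPM (-6.60 ± 0.34), and BAM1, BAM3, BAM4 and the plastid glucose exporter gene PGLCT also fell.

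Nitrogen uptake and assimilation had 6 of 25 tested genes risen and 11 fallen (median -0.54). The risen share of 24% was near the 23.4% of all loci, while 44% fell beside 23.9% of all loci. NIA2, the main nitrate reductase gene of the leaf, fell from 1679, 1891 and 1986 CPM to 76.8, 116 and 135 CPM (-4.09 ± 0.29, adjusted p = 2.31e-11). The glutamate dehydrogenase genes GDH1 and GDH2, which release ammonium when carbon is short, fell (-4.16 ± 0.26 and -4.01 ± 0.19). The nitrite reductase gene NIR1 rose from 61.4, 59.6 and 80.3 CPM to 161, 149.7 and 143 CPM (1.17 ± 0.18) and the nitrate transporter gene NRT1.7 by 3.39 ± 0.27. NIA1 had 39.3, 28.3 and 41.6 CPM and 29.1, 32.4 and 24.9 CPM, overlapping levels that did not pass (adjusted p = 0.369).

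The antenna genes, whose proteins bind most chlorophyll, fell to a fraction of their dark level. Of 21 light-harvesting genes, 18 fell and 2 rose (median -2.05), and the summed level fell from 27476 to 35919 CPM to 5138 to 6362 CPM. LHCB2.4, of the mobile antenna of photosystem II, had 364, 432 and 516 CPM in T0D and 4.82, 2.79 and 5.8 CPM in T8H (-6.60 ± 0.36, adjusted p = 7.07e-13). LHCB2.1 went from 907, 1079 and 1094 CPM to 17.9, 22.5 and 19.7 CPM (-5.68 ± 0.30), and LHCB2.2 fell (-4.74 ± 0.27), LHCB1.1 (-4.91 ± 0.34) and LHCB1.3 (-2.51 ± 0.27) to 1130.0 CPM. The LHCB1 and LHCB2 genes are near-identical copies, so reads may be split among them and the copy is uncertain. The antenna gene that rose the most was LHCB4.3, a variant of the minor antenna CP29, from 30.1, 25.7 and 31.7 CPM to 90.3, 83.7 and 84.9 CPM (1.57 ± 0.29, adjusted p = 1.38e-04). LHCA6 rose by 0.57 ± 0.18 and LHCB7 did not pass.

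Nuclear genes of the photosystems and of electron transport fell as well, with 24 of 30 fallen and 2 risen (median -1.06). PSAD-2 of photosystem I fell from 609, 781 and 874 CPM to 102, 93.6 and 130.2 CPM (-2.80 ± 0.30), PETE1, one of the plastocyanin genes (-1.93 ± 0.24), PSAL (-1.80 ± 0.29) and PSBO2 of the water-splitting complex (-1.54 ± 0.25). The genes that rose were FNR2, a ferredoxin reductase, by 1.48 ± 0.19 and the ATP synthase gene ATPD by 0.64 ± 0.17. The Calvin-Benson cycle had 12 of 24 genes fallen and 3 risen (median -0.51). The Rubisco activase gene RCA went from 6938, 8857 and 8278 CPM to 2025, 2129.6 and 2236 CPM (-1.91 ± 0.27, adjusted p = 2.25e-06), and RBCS1A, a small subunit of Rubisco whose copies share reads, from 8160.1, 12084 and 13547 CPM to 4364, 3710.1 and 3641 CPM (-1.53 ± 0.35). CP12-3 and the aldolase gene FBA1 fell (-2.91 ± 0.50 and -1.84 ± 0.30), while EMB3119, a ribose phosphate isomerase, rose by 2.06 ± 0.18. In photorespiration, which recycles the product of the oxygenase reaction of Rubisco, 6 of 18 genes rose and 8 fell (median -0.15). These are 33.3% and 44.4%, beside 23.4% and 23.9% of all loci. PGLP1, its first enzyme, rose by 1.33 ± 0.26, while the glycine decarboxylase gene GLDP2 fell (-2.45 ± 0.19), the aminotransferase gene GGT1 (-2.03 ± 0.20) and AGT (-1.73 ± 0.22).

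Chlorophyll and haem genes moved in both directions, 14 of 35 up and 11 down (median 0.32). The shares were 40% and 31.4%, beside 23.4% and 23.9% of all loci. HEMA1, which encodes the enzyme that sets the rate of the pathway, fell from 459, 439 and 502 CPM to 61.1, 54.8 and 49.5 CPM (-3.08 ± 0.21, adjusted p = 9.73e-12). GUN4, an activator of magnesium chelatase, fell (-3.43 ± 0.27) and CAO, which makes chlorophyll b (-3.32 ± 0.18). PCB2, a late reductase of the pathway, rose from 16.8, 11.4 and 20.3 CPM to 122, 141 and 129 CPM (3.02 ± 0.21, adjusted p = 2.81e-11). Of the light-dependent reductases, PORC rose by 1.5 ± 0.24, and PORA did not pass, with 0.484, 1.12 and 1.55 CPM and 2.82, 0.971 and 0.883 CPM.

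Genes encoded in the chloroplast moved in both directions. Of 42 photosynthesis genes of the plastid, 8 rose and 5 fell (median 0.37), and of 30 for its gene expression, 9 rose and 4 fell (median 0.47). Of all loci 23.4% rose and 23.9% fell, and the counts changed with the libraries in the fit. Of the photosynthesis genes, 4, 3 or 5 rose without T0D replicate 1, 2 or 3, 5 or 4 rose without T8H replicate 2 or 3, 1 rose with the ribosomal RNA share as a covariate and 19 rose in a fit of T8H and T0D alone, while 3 fell without T8H replicate 1, T8H replicate 2 or T0D replicate 2. Of the gene expression genes, 5 rose without T0D replicate 2 or 3 or with the covariate and 17 in the fit of T8H and T0D alone, while 2 fell without T8H replicate 2. The short gene psaI had 195, 141 and 139.5 CPM in T0D and 963, 1058 and 1196 CPM in T8H (2.76 ± 0.72, adjusted p = 0.00519). For psbN, T0D replicate 1 was close to T8H and far from the other dark libraries, at 504, 4786 and 3688 CPM against 349, 272 and 322 CPM (-3.25 ± 0.78, adjusted p = 0.00273), and rpl33 showed the same pattern, with 637, 3812 and 4427 CPM and 356, 384 and 429 CPM. Without that library the log2 changes were -3.75 and -3.40. The ribosomal protein genes rps15 and rps16 rose by 2.02 ± 0.44 and 1.92 ± 0.46. With the ribosomal RNA share of each library in the model as a covariate, petL, petG and rpl32, which rose by 2.61, 1.74 and 1.7, no longer passed. All of them also lost the call without T0D replicate 1, and petL without T0D replicate 2 as well. The call of rpl32 was lost without any single library of T8H or T0D.

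By 8 h, photoprotection genes were split rather than raised. Of 31 genes, 10 rose and 13 fell (median -0.19), which is 32.3% and 41.9%, beside 23.4% and 23.9% of all loci. NPQ4, whose protein PsbS switches on the dissipation of light as heat, had 270.4, 285 and 375 CPM in T0D and 536, 494 and 429 CPM in T8H (0.65 ± 0.22, adjusted p = 0.0195), and its change did not pass without T0D replicate 1 (0.56) or 2 (0.59). HPT1 of vitamin E synthesis rose by 3.09 ± 0.34. BCH2, a hydroxylase of xanthophyll synthesis, fell from 14, 16 and 15.3 CPM to 1.3, 0.243 and 0.252 CPM (-4.25 ± 0.45), NCED4, which cleaves carotenoids (-4.24 ± 0.35), and PGR5 of cyclic electron flow (-2.14 ± 0.15). The early light-induced genes ELIP1 and ELIP2 had reached 256 and 243 CPM after 2 h of high light. At 8 h ELIP1 was at 7.57, 2.91 and 1.64 CPM against 0.691, 0.491 and 2.07 CPM in the dark, ranges that overlapped (2.06 ± 0.79, adjusted p = 0.0426), and its log2 change did not pass without T8H replicate 1 (1.14), T0D replicate 1 (1.83) or T0D replicate 2 (1.72). ELIP2 did not pass (adjusted p = 0.143). These 2 genes are close copies.

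Antioxidant enzymes and ferritins had 12 of 35 tested genes risen and 11 fallen (median -0.16). These shares were 34.3% and 31.4%, beside 23.4% and 23.9% of all loci. CAT2, the catalase of photorespiratory peroxide, fell from 645, 723 and 730.3 CPM to 45.8, 53.9 and 51.3 CPM (-3.80 ± 0.29, adjusted p = 1.18e-10), and the ferritin gene FER1 (-1.92 ± 0.28). The cytosolic ascorbate peroxidase gene APX1 rose from 52.5, 55.4 and 51.9 CPM to 159, 151 and 136 CPM (1.48 ± 0.20), the superoxide dismutase gene FSD3 of the plastid by 2.1 ± 0.23, and SAPX by 1.79 ± 0.23. Chloroplast proteases and chaperones showed 11 of 29 risen and 8 fallen (median 0.01), and 4 fallen without any one of the 3 T8H libraries or with the ribosomal RNA share as a covariate. The chaperone genes CR88 (an HSP90 of the plastid) and CPHSC70-2 went from 64.3, 81 and 83.4 to 558, 637 and 574 CPM and from 60.8, 54.5 and 92.8 to 341, 344 and 347 CPM. CPN60A, which folds Rubisco among others, rose by 1.86 ± 0.25 and the membrane protease gene EGY1 by 2.01 ± 0.20. FTSH8, a protease of photosystem II repair, had a log2 change of -0.53 ± 0.19 (adjusted p = 0.0222), a change that did not pass in 7 of the alternative analyses. In thiamine synthesis THIC and THI1 rose by 1.13 ± 0.20 and 0.70 ± 0.22 and TH1 fell (-0.86 ± 0.23), of 6 genes.

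Heat shock genes rose more often than they fell, 16 of 27 tested up and 3 down (median 1.49). HSP90.1 had 1.8, 2.1 and 2.29 CPM in T0D and 20.9, 61.1 and 59.5 CPM in T8H (4.50 ± 0.56, adjusted p = 3.01e-06), with T8H replicate 1 the lowest of its group. HSP101, which dissolves protein aggregates, rose from 1.66, 3.01 and 2.66 CPM to 10.6, 14.4 and 12.7 CPM (2.35 ± 0.36). The small heat shock protein genes HSP17.4 and HSP17.6II had no read in the dark and 1.14 and 0.488 CPM in T8H, at least 5.13- and 2.2-fold higher. Those that fell were the factor genes HSFA7A (-5.31 ± 0.52) and HSFB2A and the chaperone gene HSP70B. None of the 27 was higher in T8H than in T8L and 2 were lower.

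Anthocyanin and flavonoid genes rose for the most part. Of 31 genes, 22 rose and 4 fell (median 2.01, or 1.69 with 2 genes that had no dark read set at their bound). The glycosyltransferase gene UF3GT of anthocyanin decoration (AT5G54060, chr5:21936746-21938396) rose from 0.829, 0.42 and 0.959 CPM to 80.5, 50.1 and 23.1 CPM (6.12 ± 0.69, adjusted p = 1.28e-06). DFR, the first enzyme committed to anthocyanins (AT5G42800, chr5:17164093-17166032), had 25.4, 10.4 and 10.4 CPM and 119, 58.4 and 25.6 CPM (2.15 ± 0.52, adjusted p = 0.00265). T8H replicate 1 was the highest and replicate 3 the lowest for both genes, and the lowest T8H value of DFR was just above the highest dark value. PAP1, the MYB factor that switches on the pathway, rose from 1.66, 0.981 and 0.59 CPM to 18.6, 12.3 and 6.43 CPM (3.55 ± 0.67), the flavonoid hydroxylase gene TT7 by 4.77 ± 0.81 and the glycosyltransferase gene AT4G14090 by 5.31 ± 0.50. The acyltransferase gene AT1G03940 and the factor gene MYB11 had no read in the dark and were at least 16.9- and 2.5-fold higher in T8H. TT4, the chalcone synthase at the entry of the pathway, did not pass, with 37, 37.7 and 33.9 CPM in T0D and 102, 44.3 and 21.6 CPM in T8H (adjusted p = 0.306). Those that fell were PAL2 and C4H of the general phenylpropanoid pathway, SNG1 of sinapate esters and the regulator gene TTG1.

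The spread among the T8H libraries bears on these values. T8H replicate 1, the deepest library, was the highest of its group for 24 of the 31 flavonoid genes, for 18 of the 22 starch breakdown genes and for 26 of the 31 genes of cold, drought and abscisic acid, against 33.7% of all tested loci. Without it, 18 flavonoid genes rose, 15 of starch breakdown and 10 of cold, drought and abscisic acid, in place of 22, 16 and 12. The flavonoid genes summed to 1263 CPM in it, against 766 and 501 CPM in the other two T8H libraries, and the part of depth in this was not tested.

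Sulphur assimilation and glucosinolate synthesis, which makes the mustard oil precursors of the leaf, had 19 of 29 tested genes risen and 4 fallen (median 1.61). CYP79F2, which starts the route from long-chain methionine derivatives, had 0.138, 0.0701 and 0.148 CPM in T0D and 6.16, 5.95 and 7.07 CPM in T8H (5.65 ± 0.47, adjusted p = 5.42e-10). The transporter gene BASS5 rose by 3.75 ± 0.58, GSTF11 by 3.54 ± 0.41 and the sulphotransferase gene SOT17 by 2.83 ± 0.20. The 4 that fell were CYP79B3 of the tryptophan branch and APS1, APR2 and SIR of sulphate reduction.

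Hormone and stress genes rose more often than they fell. Of 29 genes of salicylate and jasmonate, 19 rose and 2 fell, WRKY33 and CBP60G (median 1.58). AOC2 of jasmonate synthesis went from 3.52, 4.98 and 2.21 CPM to 85.9, 74.9 and 91 CPM (4.55 ± 0.35, adjusted p = 4.73e-10). The defensin gene PDF1.2 and the storage protein gene VSP2 rose by 3.21 ± 0.90 and 2.81 ± 0.83. FMO1, an enzyme of systemic immunity, had 1 read in the dark group, with a ratio of 70.2 (95% interval 12.2 to 2810.3). Of 31 genes of cold, drought and abscisic acid, 12 rose and 7 fell (median 0.41), and 3 fell without T8H replicate 3. The risen share was 38.7%, beside 23.4% of all loci, and the fallen share of 22.6% was near the 23.9% of all loci. The cold response factor gene CBF3 had no dark read and 5.53, 1.94 and 1.77 CPM in T8H, at least 13.9-fold higher, and COR15B, which protects membranes in the cold, rose from 2.14, 4.77 and 3.1 CPM to 248, 86.6 and 58.5 CPM (5.30 ± 0.76). AT4G33980, an uncharacterised protein, rose by 6.66 ± 0.46, and CYP707A2, which degrades abscisic acid, had 3 dark reads and a ratio of 75.9 (95% interval 25.7 to 371).

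Most photoreceptor and growth genes that changed fell. In light signalling 18 of 30 genes fell and 2 rose, BBX22 and UVR8 (median -1.17), and 4 rose without T8H replicate 2. PHYA, the receptor of far-red light that accumulates in darkness, fell from 445, 459 and 384 CPM to 22.8, 26.1 and 21.3 CPM (-4.20 ± 0.19, adjusted p = 9.08e-15), and PIF5, a factor that drives growth at night, from 271, 372 and 349 CPM to 16.4, 19.7 and 19.7 CPM (-4.16 ± 0.20). BBX25 and HFR1 also fell (-6.09 ± 0.35 and -5.35 ± 0.81). HY5, the central factor of light responses, was at 13.7, 25.2 and 14.8 CPM in the dark and 15.3, 16.3 and 11.7 CPM in T8H, overlapping levels that did not pass (adjusted p = 0.318). Of 16 tested genes of shade, auxin and cell wall growth, 10 fell and 2 rose, EXPA5 and XTH9 (median -2.26), and 1 rose without T8H replicate 2, T0D replicate 2 or T0D replicate 3. The touch-induced TCH4 fell from 169, 147 and 151 CPM to 6.72, 6.68 and 5.68 CPM (-4.60 ± 0.51), BBX28 (-3.88 ± 0.19), MERI5B (-3.83 ± 0.47) and the auxin response gene IAA29 (-3.66 ± 1.02).

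Genes for making ribosomes rose. All 10 genes of ribosome biogenesis rose at least 2-fold (median 2.24), beside 23.4% of all loci risen. The 10 genes were chosen with earlier results of these data known, which limits this comparison. NUC-L1, which encodes nucleolin, went from 39.2, 70.3 and 62.1 CPM to 315, 302 and 247 CPM (2.33 ± 0.22, adjusted p = 5.64e-09), and FIB2, the fibrillarin that methylates ribosomal RNA with snoRNAs as guides, from 2.63, 7.08 and 3.02 CPM to 29.9, 29.3 and 17.4 CPM (2.59 ± 0.32). NRPA1, the largest subunit of the polymerase that transcribes ribosomal RNA, rose by 2.33 ± 0.23 and AT5G08180, of a ribosomal protein family, by 2.4 ± 0.45. Of 243 tested loci of cytosolic ribosomal proteins, 84 rose and 21 fell (median 0.31). The fallen count was 13, 12 or 8 without T8H replicate 1, 2 or 3, 9 without T0D replicate 3, 11 with upper-quartile scaling and 8 with the ribosomal RNA covariate. AT3G57490 rose by 2.58 ± 0.32 and AT3G14595 fell (-2.73 ± 0.26). Many ribosomal proteins have several near-identical copies, so these counts are uncertain as to the copy. The ribosomal RNA share given above was measured after ribosomal RNA removal and ran from 0.0423% to 32.9% within the group of 5 h of high light. What the removal left and what the leaf held cannot be told apart. The relation of this share to these genes was not tested.

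**Figure D3:**
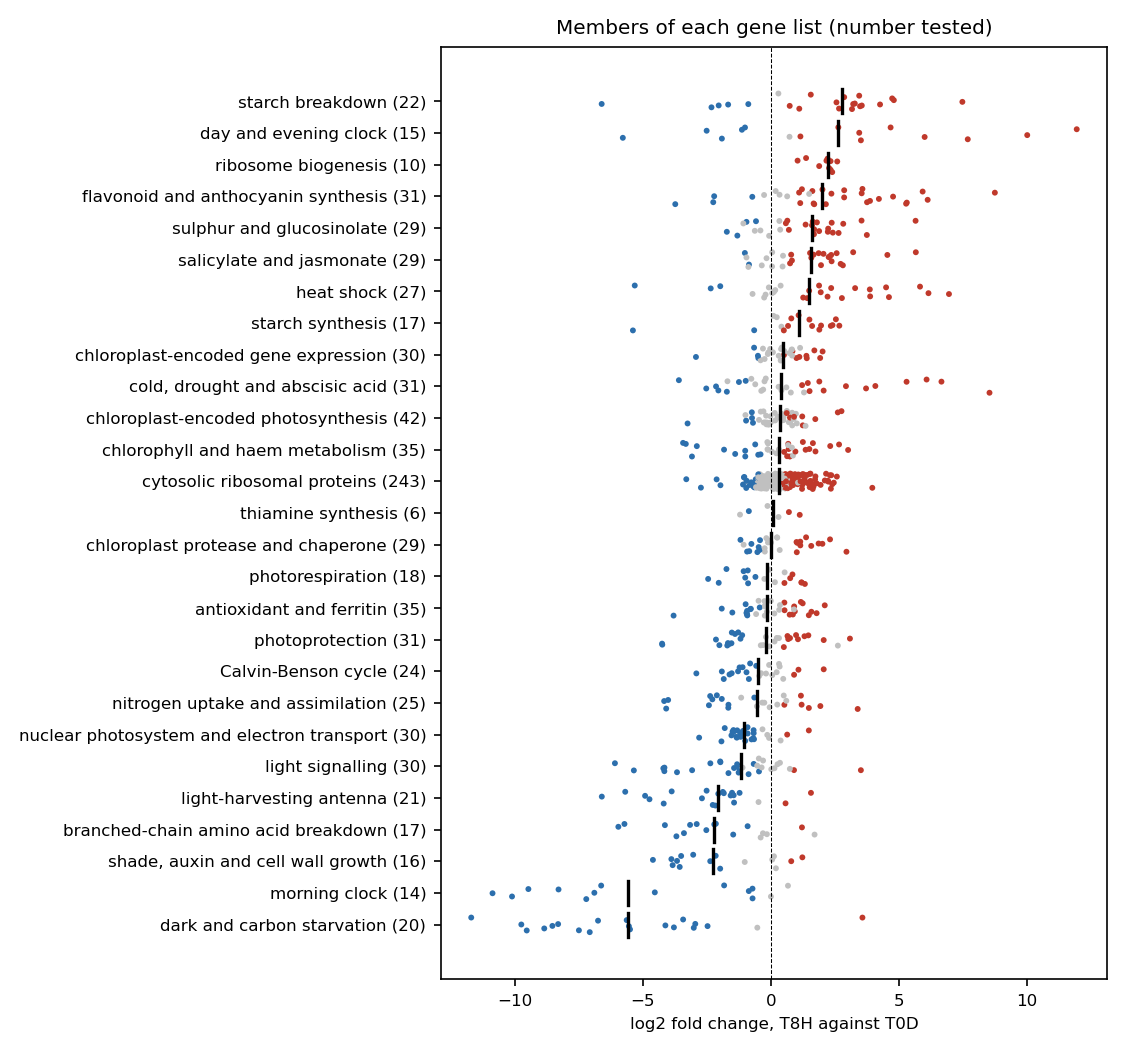
Log2 fold change of T8H against T0D for each tested member of the 27 gene lists, with risen genes in red, fallen genes in blue, genes that did not pass in grey, the median of each list as a black bar and the number tested in brackets. Carbon starvation and the morning clock lie furthest to the left, both with a median of -5.58, and starch breakdown furthest to the right at 2.76.

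The levels after 2 and 5 h of high light show when in the 8 h each level was reached. These values share the 3 dark libraries and are set side by side without a test between hours. Carbon starvation genes were at their low level by 2 h, with a median change from dark of -6.11 at 2 h, -7.60 at 5 h and -5.58 at 8 h. SEN1 had a mean of 1.01 CPM at 2 h and 0.354 CPM at 5 h. Morning clock genes had medians of -1.75, -4.32 and -5.58; CCA1 was at 158, 13.7 and 0.603 CPM. TOC1 was at 7.13 CPM at 2 h, 46.6 at 5 h and 127 at 8 h, and ELF4 at 0.0751, 5.17 and 35.4 CPM. Antenna medians were -0.70, -0.70 and -2.05, the lowest at 8 h. The flavonoid medians were highest at 2 h, at 3.80, 2.91 and 2.01, and F3H stood at 327, 83.4 and 24.5 CPM. Ribosome biogenesis was highest at 5 h, with medians of 2.28, 3.39 and 2.24. In standard light its summed level was also highest at 5 h, at 429 to 634, 1174 to 1530 and 411 to 480 CPM. The flavonoid sum in standard light was also highest at 2 h, at 2589 to 3591, 440 to 528 and 243 to 303 CPM. The 3 libraries of 5 h of high light differed widely, with antenna sums of 10742 to 21677 CPM and ribosomal RNA shares of 0.0423% to 32.9%. A few stress genes that had fallen at 8 h were above their dark level at 2 h: FER1 had a mean of 522 CPM at 2 h against 30.4 CPM at 8 h, FTSH8 382 against 84.8, and CAT2 1129 against 50.4.

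**Figure D4:**
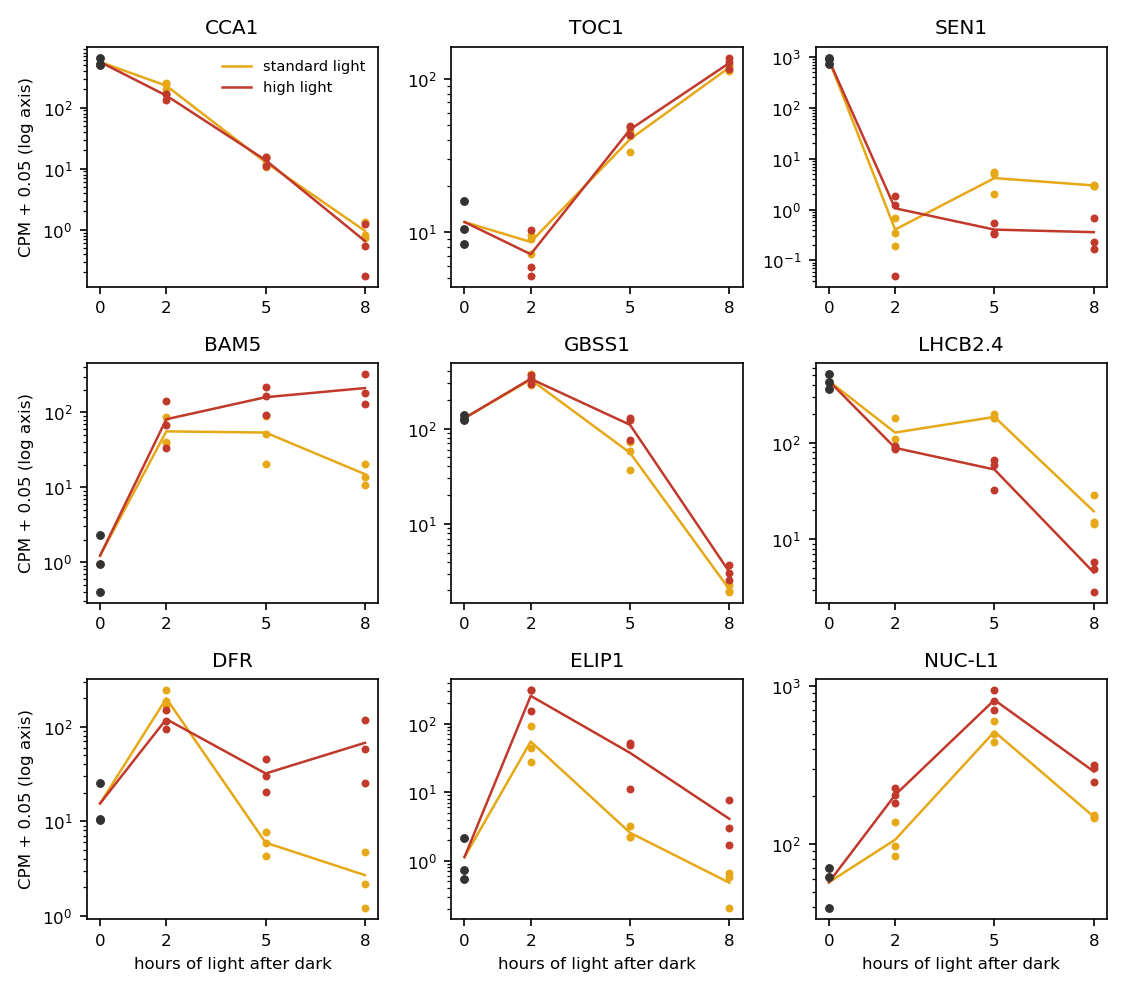
Levels of 9 genes at 0, 2, 5 and 8 h of high light (red) and standard light (yellow) in CPM + 0.05 on log axes, with points for single libraries, dark libraries in black and lines through the means. At 8 h CCA1 and TOC1 overlap between the intensities, whereas BAM5, DFR and NUC-L1 are higher and LHCB2.4 and SEN1 lower in high light.

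The contrast of T8H with T8L, at the same hour, tests where the change from dark differed between the intensities. By this test 1529 loci (7.79%) were higher and 1496 (7.62%) lower in high light, together 3025 (15.4%). Fitted on these 2 groups alone, the same test gave 3353 and 3102. Without single libraries it gave 844 (without T8L replicate 2) to 1383 higher and 696 (without T8H replicate 2) to 1227 lower. Against the dark, T8L itself had 4143 loci risen (21.1%) and 4268 fallen (21.7%). Of the clock genes, none of the 14 morning genes and 1 of the 15 day and evening genes, ELF4, differed. CCA1 had a log2 difference of -0.23 ± 0.41 (adjusted p = 0.782), TOC1 of 0.10 ± 0.21 (adjusted p = 0.827) and ELF4 of 1.56 ± 0.45 (adjusted p = 0.0235). Carbon starvation genes were lower in high light for 12 of 20, and SEN1 differed by -3.48 ± 0.71 (adjusted p = 0.00257). A difference that did not pass does not show that the 2 intensities acted alike.

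Flavonoid genes were mostly above standard light, with 22 of 31 higher and 1 lower in T8H (median difference 3.09). UF3GT had 0.459, 0.902 and 2.9 CPM in the T8L libraries, below every T8H library, a log2 difference of 5.14 ± 0.63 (adjusted p = 6.05e-05). DFR, F3H and TT7 differed by 4.67 ± 0.60, 4.27 ± 0.52 and 4.13 ± 0.76, and CSLA01, a glucomannan synthase family gene, by 4.35 ± 0.82. UF3GT, DFR, F3H, TT7 and CSLA01 were picked by a rule that required no overlap of T8H and T8L libraries. In 6 genes of the pathway, TT5, CHIL, F3H, FLS1, UGT78D2 and DFR, the change from dark was upward in high light and downward in standard light, and both passed. Without T8H replicate 1 the log2 changes of F3H, TT5 and UGT78D2 from dark were 0.79, 0.60 and 0.69 and did not pass. For F3H the dark libraries had 9.05, 12.7 and 10.5 CPM, T8H 37.8, 25.5 and 10.2 CPM and T8L 0.689, 1.65 and 1.48 CPM, so T8H overlapped the dark range in replicate 3 and lay wholly above T8L. TT4, which did not pass against the dark, was 3.91 ± 0.57 above T8L, and HY5 was 2.31 ± 0.27 above it. Sulphur and glucosinolate genes were higher in 17 of 29 with 3 lower, ribosome biogenesis genes in 9 of 10 and cytosolic ribosomal proteins in 68 of 243 with 1 lower. Photorespiration genes were higher in 8 of 18 and Calvin-Benson genes in 5 of 24, with none lower (median differences 0.46 and 0.34). Photoprotection genes were higher in 6 of 31 and lower in 2. Chloroplast proteases and chaperones were higher in 11 of 29 and lower in 3. Nuclear genes of the photosystems and electron transport were lower in 10 of 30 and higher in none (median difference -0.54).

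Of the antenna genes, 17 of 21 were lower than in standard light and 3 were higher (median difference -1.20). LHCB1.4 had 53, 44.6 and 87.9 CPM in T8H, 612, 368 and 403 CPM in T8L and 948, 1178 and 1239 CPM in the dark, and differed between the intensities by -2.90 ± 0.30 (adjusted p = 2.15e-06). The rule that picked LHCB1.4 required T8H and T8L not to overlap, and the dark libraries lay above both. Of the salicylate and jasmonate genes, 15 of 29 were lower in T8H than in T8L and none higher (median difference -1.24), although 19 had risen from dark. UGT76B1, a glucosyltransferase that tunes salicylate defence, had 0.915, 1.21 and 2.78 CPM in T8H and 9.1, 51.7 and 41.4 CPM in T8L (-4.48 ± 0.60, adjusted p = 4.40e-05). ALD1, which makes the immune signal pipecolate, differed by -2.99 ± 0.60, ARD3 of the methionine cycle by -3.18 ± 0.35 and the factor gene RAV2 by -3.11 ± 0.53. CBP60G, an activator of salicylate synthesis, fell from dark in T8H and rose in T8L; its fall was -0.70 without T8H replicate 1 and -0.61 without T0D replicate 1, and passed in neither.

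**Figure D5:**
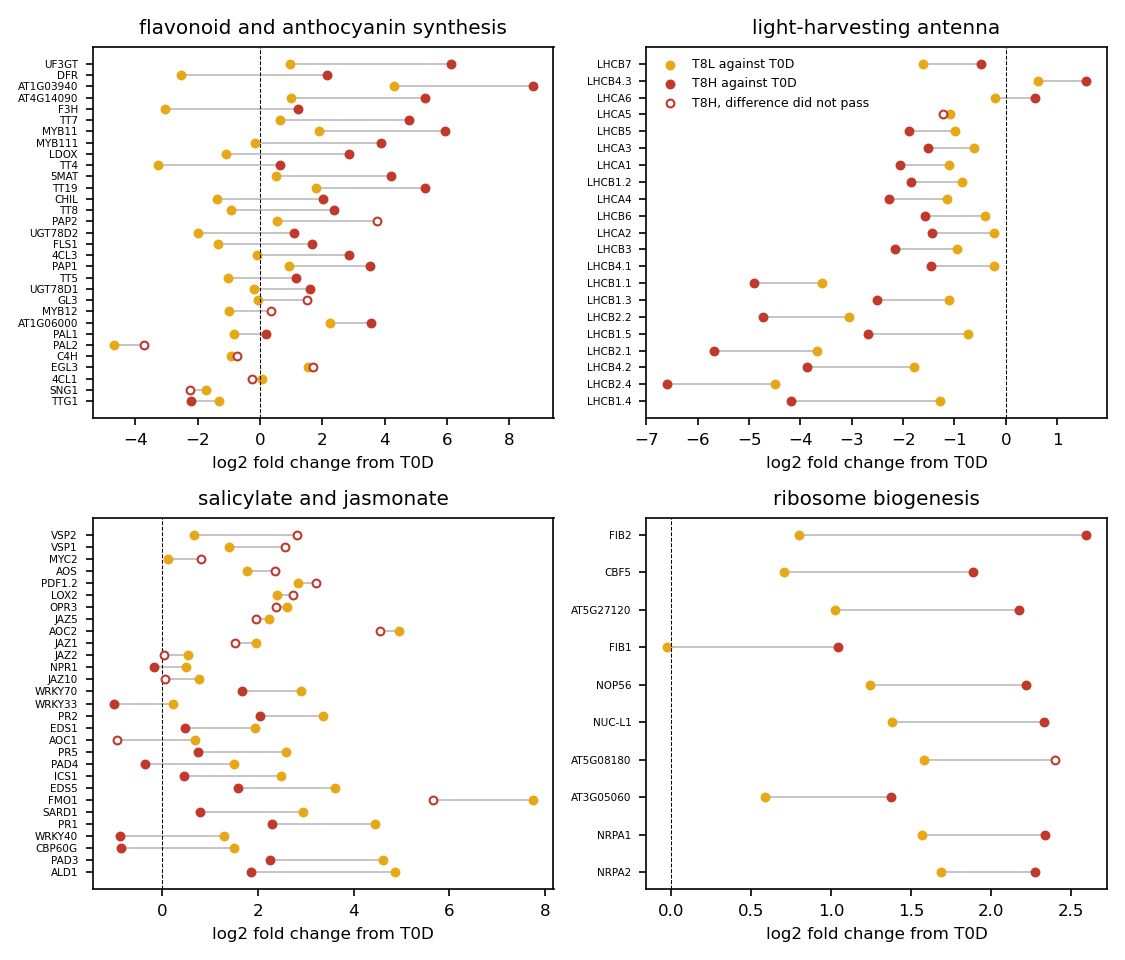
Log2 fold change from dark after 8 h of standard light (yellow) and of high light (red) for each member of 4 lists, joined by a line per gene; open red circles are genes whose difference between the intensities did not pass. Most flavonoid and ribosome biogenesis genes lie further right in high light, 17 of 21 antenna genes and 15 of 29 salicylate and jasmonate genes further left with a difference that passed.

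The promoters of tested nuclear protein-coding genes, from 250 bases before to 50 after the start, were searched for the motifs shown above, on both strands. The evening element was present in 6.09% of all promoters, in 11.1% of those of genes risen at least 2-fold, in 21.8% at 16-fold or more, and in 4.18% of those fallen at least 2-fold. The motif TTATCC was in 15.9% of all, 21.2% of fallen and 14.2% of risen promoters, and the I-box in 14.9%, 20.2% and 13.3%. G-boxes were in 8.98% of all, 10.6% of fallen and 9.17% of risen promoters. The site II element was in 19.5% of all promoters, in 20.5% of risen and 12.5% of fallen ones, and in 58.4% of those of cytosolic ribosomal proteins. The ACGT core (ACGTG), the CCA1 element (AAAAATCT) and the TATA box (TATAAA) were in 27.7%, 8.26% and 50.8% of all promoters, in 29.2%, 9.11% and 51.3% of risen ones, and in 31%, 7.74% and 53.8% of fallen ones. Among genes risen and fallen at least 16-fold, the evening element was in 21.8% and 4.93% of promoters. The site II element was in 12.5% and 7.04% of these, and the G-box in 12.5% and 13.4%. The ACGT core was in 39.5% and 39.4%, TTATCC in 11.7% and 25%, and the I-box in 8.06% and 19.7%. The CCA1 element was in 8.06% and 5.99% and the TATA box in 55.2% and 57.7%. All these shares describe letters in the window and were not tested.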

How the data were processed

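RNA of 21 libraries in 7 groups of 3 was sequenced on 1 lane as single reads of 75 bases after ribosomal RNA removal with a stranded total RNA kit, per the labels' protocols. FastQC 0.11.7, Trim Galore 0.4.4, Subread 1.5.0 and SAMtools 1.3.1 are named in the submitters' processing notes. The deposited counts are whole reads per locus, made by the authors with featureCounts 1.5.0-p1 on the reverse strand over 1 span per gene, introns included, per the file headers. No source used here names the genome build; 32896 of 32897 loci matched by tag had the start and end of the RefSeq annotation of TAIR10.1. The log2 fold changes and the p-values of the authors' deposited table were used for the comparison of called genes alone, and a deposited table of log2 RPKM was not used.

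All 21 libraries entered 1 edgeR 4.0.16 quasi-likelihood fit with TMM scaling (R 4.3.3), after a filter on low counts that kept 19626 of 33341 loci. Standard errors were derived from the log2 fold change and its F statistic, as their size divided by the root of F. CPM are counts scaled by TMM library sizes, and total counts ran from 6545003 to 31449700. Intervals and the floor of 3 counts in 1 library cover counting error only. Replicates are biological per the series' design text; no source used here says more of their origin, so p-values cover only the spread seen among them. Alternatives used DESeq2 1.42.0 and limma 3.58.1. The fit was tested on simulated data.

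Named genes were the 10 largest rises and falls among nuclear protein-coding genes with a symbol, at least 5 CPM in the higher group and no overlap of libraries; up to 4 called members of each list; a set of fixed genes; the 5 largest differences each way from standard light that were also called against the dark; and list members with opposite changes from dark in the 2 intensities. Members and lists were chosen with earlier results of these data known. Genes named because a count was small, because they were not called, or as examples were chosen after their values were seen.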

Additional observations from a re-analysis of the deposited data

Results flagged for a closer look

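In 8 genes the change from dark had opposite signs after 8 h of high and of standard light, with both changes and the difference between the intensities past the threshold of the edgeR test. The log2 difference of T8H from T8L was 2.16 for TT5 (chalcone isomerase), 3.40 for CHIL (a chalcone isomerase-like protein), 4.27 for F3H (flavanone hydroxylase), 3.03 for FLS1 (flavonol synthase), 3.09 for UGT78D2 (a flavonoid glycosyltransferase) and 4.67 for DFR (dihydroflavonol reductase), all higher in high light. It was 1.39 for AT5G18380, of the cytosolic ribosomal protein list. CBP60G, an activator of salicylate synthesis, differed by -2.35, lower in high light.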

How the results depend on the processing

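The counts of loci risen and fallen against the dark stayed within 1.5 times of 4593 and 4682 under each alternative run, at 4054 to 5393 risen and 3717 to 4944 fallen. Upper-quartile scaling moved the median of all loci by 0.15 (log2) and gave 5393 risen and 3972 fallen, a risen share of 57.6% against 49.5%. With the replicate number as a block (replicate block), 4576 rose and 4595 fell. Deviations of same-numbered T8H and T0D libraries from their group means correlated at -0.0035, 0.060 and -0.020. With 3 libraries a group this cannot decide whether the numbers pair the samples. The block ended the call of 1 of 153 named genes, AT5G63300 of the cytosolic ribosomal protein list (log2 -3.17). The counts against standard light depended on the libraries in the fit: 3353 higher and 3102 lower with only the groups compared, and 844 to 1383 higher and 696 to 1227 lower when single libraries were left out; the cause was not tested.

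Of 2281 alternative values of 153 named genes, 2218 kept direction and call, 60 lost the call, 3 gained it and none reversed. The changed values belonged to 18 genes, among them F3H, whose log2 change was 0.79 without T8H replicate 1, and DFR, at 2.19 with only the groups compared, neither of which passed. Of 810 alternative values of gene list counts, 60 moved by over 1.5 times: 6 for the 21 fallen cytosolic ribosomal proteins (8 to 13) and 54 for counts below 10. The latter include chloroplast-encoded photosynthesis (8 risen became 1 to 19, 5 fallen became 3) and gene expression (9 risen became 5 to 17, 4 fallen became 2), both at 0 by construction where chloroplast loci were left out, fallen chloroplast proteases and chaperones (8 became 4 or 5), fallen cold, drought and abscisic acid genes (7 became 3) and risen light signalling genes (2 became 4 or 5); the cause was not tested. The 63 risen snoRNAs were 34 with the ribosomal RNA covariate and 50 to 83 under the other alternatives. Depth limits loci near the floor, of 0.193 to 0.221 CPM in T0D and 0.0954 to 0.324 CPM in T8H.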
